A study of Mus musculus with 19 samples.

Results

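Molecular chaperones of the heat shock protein (HSP) families and their J-domain partners were followed through the RNA-Seq data of the Musclin study. The genes were taken by name, as every symbol of the *Hspa*, *Hspb*, *Hsp90* and *Dnaja*, *Dnajb* or *Dnajc* series with a number, together with *Hspd1*, *Hspe1* and *Hsph1*, leaving out pseudogenes. The rule found 72 of the 55573 genes listed for 7 mouse tissues, 72 of 55487 in brown adipose tissue (BAT) and 64 of 13756 in inguinal white adipose tissue (iWAT). The 8 genes that are not in the iWAT table, *Dnajb7*, *Dnajb8*, *Dnajc22*, *Dnajc5b*, *Dnajc5g*, *Hspa1l*, *Hspb3* and *Hspb9*, were not analysed there. The rule uses names alone, but the family was chosen for description with earlier results of these data known.

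HSP70 proteins hold unfolded segments of other proteins and release them in a cycle driven by ATP. J proteins, named for the domain that stimulates HSP70, deliver clients to it and decide where in the cell it works, and HSP110 proteins exchange its nucleotide. HSP90 matures signaling proteins, small heat shock proteins hold unfolding proteins without using ATP and are abundant in muscle, and the HSP60 ring of mitochondria folds imported proteins inside a closed chamber. The stress-inducible members are switched on by heat shock factor 1, and the members of the endoplasmic reticulum (ER) by the unfolded protein response.

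The 7 tissues came from C57BL/6J wild-type (WT) mice on chow, with 1 library each from heart, brain, liver, small intestine, tibialis anterior (TA) muscle and white and brown fat. iWAT and BAT came from male MCK-Musclin mice and WT controls, 5 months old by the study's methods, on chow and kept at 8 °C for 1 week, so that all 12 adipose libraries share the cold exposure. There were 3 libraries per group, described as biological replicates. MCK-Musclin mice carry the coding sequence of the secreted muscle protein Musclin (*Ostn*) behind the promoter of muscle creatine kinase, which is active in skeletal muscle and heart. The study describes the transgene as muscle-specific, and whether it is active in fat cells was not tested here. Which of the founder lines was sequenced is not stated. Libraries were selected for poly(A) RNA and their values are FPKM, fragments scaled to exon length and to all mapped fragments, and depth is unknown. Whether the iWAT and BAT of a library number came from 1 mouse is not stated.

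*Ostn* was at 30.3 to 37.9 FPKM in the MCK-Musclin libraries of BAT and is listed at 0 in the WT libraries. In iWAT it was at 5.17 and 4.21 FPKM in MCK-Musclin libraries 2 and 3, but it is listed at 0 in the library labelled MCK-Musclin 1, against 0, 0 and 0.225 FPKM in WT. Results in iWAT are therefore also given without the library labelled MCK-Musclin 1. In BAT 13 of 15 fast skeletal muscle markers were higher in MCK-Musclin mice at an unadjusted p under 0.05 (limma), against 2.18% of all genes. None of the 15 was at 0, and their summed FPKM was between 603 and 935 in WT and between 984 and 2150 in MCK-Musclin libraries. In iWAT no fast muscle marker passed, but 0 of the 15 had a log2 fold change above 0, with a median of -2.15. The sum reached 5139 in WT library 3, against at most 944 elsewhere. In the same tissue 9 of 9 B cell markers and 10 of 11 T cell markers tested were higher in MCK-Musclin mice, against 13.1% of all genes. The B cell markers had sums of 160 to 311 in WT and 350 to 457 in MCK-Musclin libraries. There 8 of 12 brown and beige fat markers were lower, against 3.44% of all genes, with sums of 609 to 1200 and 126 to 683. General adipocyte markers were present in every adipose library. In bulk tissue, fewer cells of a type and less RNA per cell cannot be told apart.

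Short stretches of the promoters are shown for the members whose known regulators have a recognizable site, and for the pair of inducible HSP70 genes that can hardly be separated by reads. RefSeq promoters (GRCm38.p6, 250 bases before to 50 after a start) were found for 58 of the 72 genes, with 75 starts. The heat shock element was searched on both strands as GAANNTTCNNGAA, the binding pattern of heat shock factors. It is in the windows of *Hspd1*, *Hspe1*, *Hsph1* and *Dnajb6*, and in 6 of the 75 chaperone promoters (8.0%) against 198 of all 32851 (0.603%). Alternative starts of *Hsph1* and *Dnajb6* count separately there, and by gene it was 4 of 58 (6.9%) against 179 of 27025 (0.662%). The inducible HSP70 genes *Hspa1a* and *Hspa1b* had no match, but the search does not find elements that depart from this strict pattern. *Hspd1* and *Hspe1*, the ring and the lid of the mitochondrial chaperonin, lie head to head on chromosome 1 and share a pair of overlapping matches, read below on the strand of each gene and marked in capitals. In *Hsph1* (an HSP110 protein) and *Dnajb6* (a J protein that keeps proteins from aggregating) the capitals also mark the match.
Hspd1, chr1:55088053-55088082, minus strand: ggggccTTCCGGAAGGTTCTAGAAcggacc
Hspe1, chr1:55088053-55088082, plus strand: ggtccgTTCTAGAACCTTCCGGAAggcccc
Hsph1, chr5:149636280-149636308, minus strand: gctgcagaTTCTGGAAAGTTCtcctcagt
Dnajb6, chr5:29735844-29735872, plus strand: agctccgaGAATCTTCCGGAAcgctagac

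In GENCODE vM21 each of these stretches overlaps an untranslated exon of *Hspd1*, *Hsph1* or *Dnajb6*, and that of *Dnajb6* also coding sequence of the gene model *Gm5129*. The ER stress element was searched as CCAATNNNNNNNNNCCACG, the pattern read by factors of the unfolded protein response, and it is in 3 of the 75 chaperone promoters (4.0%) against 39 of all 32851 (0.119%). Those genes are *Hspa5* (BiP, the HSP70 of the ER), *Hsp90b1* (GRP94, the HSP90 of the ER) and *Dnajc3* (P58IPK, a J protein of the ER), and the capitals mark the match. *Hsp90b1* holds 2 matches, of which the one nearer the start is shown. The stretch of *Hspa5* also overlaps an untranslated exon of *Hspa5* in GENCODE vM21.
Hspa5, chr2:34772020-34772048, plus strand: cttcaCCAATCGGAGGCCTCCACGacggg
Hsp90b1, chr10:86705528-86705556, minus strand: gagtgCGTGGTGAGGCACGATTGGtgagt
Dnajc3, chr14:118937822-118937850, plus strand: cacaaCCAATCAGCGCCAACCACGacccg

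The inducible HSP70 genes *Hspa1a* and *Hspa1b* lie in tandem on chromosome 17. Their RefSeq promoters differ at 4 of 300 bases, and the 30 bases shown differ at 1, which is in capitals.
Hspa1a, chr17:34972157-34972186, minus strand: tccttaaaggcgcagggcggcgagcaggTc
Hspa1b, chr17:34959239-34959268, minus strand: tccttaaaggcgcagggcggcgagcaggGc

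Of the transcript of *Hspa1a*, 58.8% of the 50-base words also occur in *Hspa1b*, so the FPKM of each can hold reads of the other and both are uncertain. The same holds for *Hspa8*, which shares 74.8% of its words with other genes, mostly with *Gm15459*, for *Hsp90aa1* (58.5%), *Hspb1* (51.6%), *Hspd1* and *Hspe1* (44.8% each) and *Dnajb6* (42.8%). *Hsph1*, *Hspa5*, *Dnajb4*, *Hspb6* and *Hspb8* share none. Exons of *Hspb6* do overlap those of *Gm38670*, *Lin37* and *Proser3*, so reads there cannot be assigned with certainty.

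The 7 tissues show where each chaperone is abundant in WT mice, as a description with 1 library each and no test. Chaperone genes were expressed broadly. At 1 FPKM or more in some tissue were 68 of the 72 genes, and 52 of these (76.5%) reached 1 FPKM in all 7 tissues, against 40.4% of all 18327 genes that reached it somewhere. *Dnajb8*, *Dnajc5b*, *Dnajc5g* and *Hspb9* are listed at 0 in every tissue. With 1 FPKM added, the highest tissue was at least 5 times the next in 2 of the 68 chaperone genes, against 14.7% of all genes. Brain and small intestine each held the highest value of 17 chaperone genes, white adipose tissue of 10, brown adipose tissue of 8, heart and TA muscle of 6 each, and liver of 4. How often each tissue was highest over all genes is not given here, so these counts show no preference of chaperones. The libraries' total FPKM ran from 393682 (brain) to 711437 (brown adipose tissue). When each was rescaled to TPM, so that all totals were equal, the highest tissue was another one for 14 of the 68 genes, with 16 then highest in white and 4 in brown adipose tissue.

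Small heat shock proteins differed widely between tissues. *Hspb7*, a muscle protein that keeps the sarcomere intact, was at 1897 FPKM in heart, 154 in TA muscle, 62.4 in white adipose tissue, 8.84 in intestine and 2.79 in brown adipose tissue, and below 1 in brain and liver. Its heart value was 12.3 times the next, the TA muscle, with 1 FPKM added. *Hspb6* (HSP20) was at 808 FPKM in heart and 670 in TA muscle, and between 6.32 in brain and 31.2 in white adipose tissue elsewhere. *Hspb8*, which works with *Bag3* in the disposal of damaged muscle proteins, was at 124 FPKM in heart, 103 in TA muscle, 56.5 in liver and 51.2 in white adipose tissue, and between 2.29 and 5.59 in the other tissues. *Hspb3* was at 21.6 FPKM in TA muscle and 3.62 in heart, and *Hspb2*, which shares exon sequence with its neighbour *Cryab*, was at 55.9 and 44.9. *Hspb1* (HSP25) was level between heart (50.1), white adipose tissue (44.8), brown adipose tissue (44.4) and TA muscle (41.4), and its order among them differs on the TPM scale, where white adipose tissue is highest.

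Of the 10 mitochondrial chaperones and J proteins, 5 were highest in brown adipose tissue, 3 in small intestine and 1 each in heart and white adipose tissue. On the TPM scale 2 were highest in brown adipose tissue and 4 in small intestine. *Hspa9* (mortalin, the HSP70 of the matrix) was at 496 FPKM in brown adipose tissue, 388 in heart and 373 in liver, and lowest in brain at 146. *Hspd1* (HSP60) was at 210 FPKM in brown adipose tissue, 203 in small intestine and 199 in liver, and *Hspe1* (HSP10), its lid, was at 118, 106 and 75.6 in the same order. On the TPM scale *Hspa9* was highest in white adipose tissue and *Hspd1* and *Hspe1* in small intestine. *Dnaja3*, the J protein of mortalin, was at 96.9 FPKM in brown adipose tissue against at most 41.8 in the other tissues, and *Dnajc15*, a J protein of the import motor, at 57.2 against at most 24.9, and both were highest in brown adipose tissue on either scale.

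Of the 12 ER chaperones and J proteins, 5 were highest in small intestine and 3 in liver, while *Dnajb14*, *Dnajc16* and *Dnajc18* were highest in brain and *Dnajc1* in white adipose tissue. On the TPM scale the counts were 5 and 2, with 3 in brain and 2 in white adipose tissue. *Hspa5* was at 314 FPKM in small intestine, 117 in liver and 24.1 in TA muscle, with the other tissues between 60.7 and 79.8. *Hsp90b1* was at 616 FPKM in small intestine, 477 in liver and 44.7 in TA muscle, and the co-chaperone *Dnajb11* at 80.0 in small intestine, 41.7 in liver and 12.3 in brown adipose tissue. *Dnajc3* was highest in liver at 45.01 FPKM, ahead of small intestine at 34.9. The 3 genes with an ER stress element were among the 5 and 3 that were highest in small intestine and liver. On the TPM scale they were among the 5 and 2, and a link of the element to tissue was not tested.

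The cytosolic chaperones divided into even and uneven genes. The constitutive *Hsp90ab1* was between 425 FPKM in liver and 684 in brain, and *Hspa8* (HSC70) between 333 in heart and 632 in small intestine. On the TPM scale *Hsp90ab1* ran from 761 in liver to 1736 in brain. *Hspa8* then ran from 483 in brown adipose tissue to 1319 in brain, so that its highest tissue was another one. *Hsp90aa1*, the inducible HSP90, ranged from 13.5 FPKM in TA muscle to 379 in brain. *Hsph1* was at 94.5 FPKM in brain and between 13.9 and 46.5 elsewhere. *Dnaja1*, a J protein that helps HSP70 fold its clients, was at 22.1 FPKM in TA muscle and 34.99 in heart and between 121 and 238 in the other tissues. The other genes among the 10 with the highest medians were *Dnajc19* (median 113), a J protein of mitochondrial import, and *Dnajb6* (88.7).

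*Dnajc6* (auxilin), which uncoats clathrin vesicles at synapses, was at 44.7 FPKM in brain and 1.51 in white adipose tissue, 18.2 times the next with 1 FPKM added, and at or near 0 in the others. *Dnajc22* was seen in liver (54.8 FPKM) and small intestine (31.8) and at most 0.191 elsewhere. *Dnajc21*, a J protein of ribosome assembly, was highest in TA muscle at 121 FPKM, against at most 48.3 in the other tissues.

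Inducible HSP70 was highest in brown adipose tissue. *Hspa1a* was at 38.9 FPKM there and between 2.44 and 16.3 in the other tissues, and *Hspa1b* at 49.7 and between 2.16 and 24.0. The summed FPKM of 15 immediate early genes, which respond within minutes to the handling of tissue, was also highest in this library, at 321 against 88.4 to 175 in the others, and its part in these values was not tested.

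**Figure D1:**
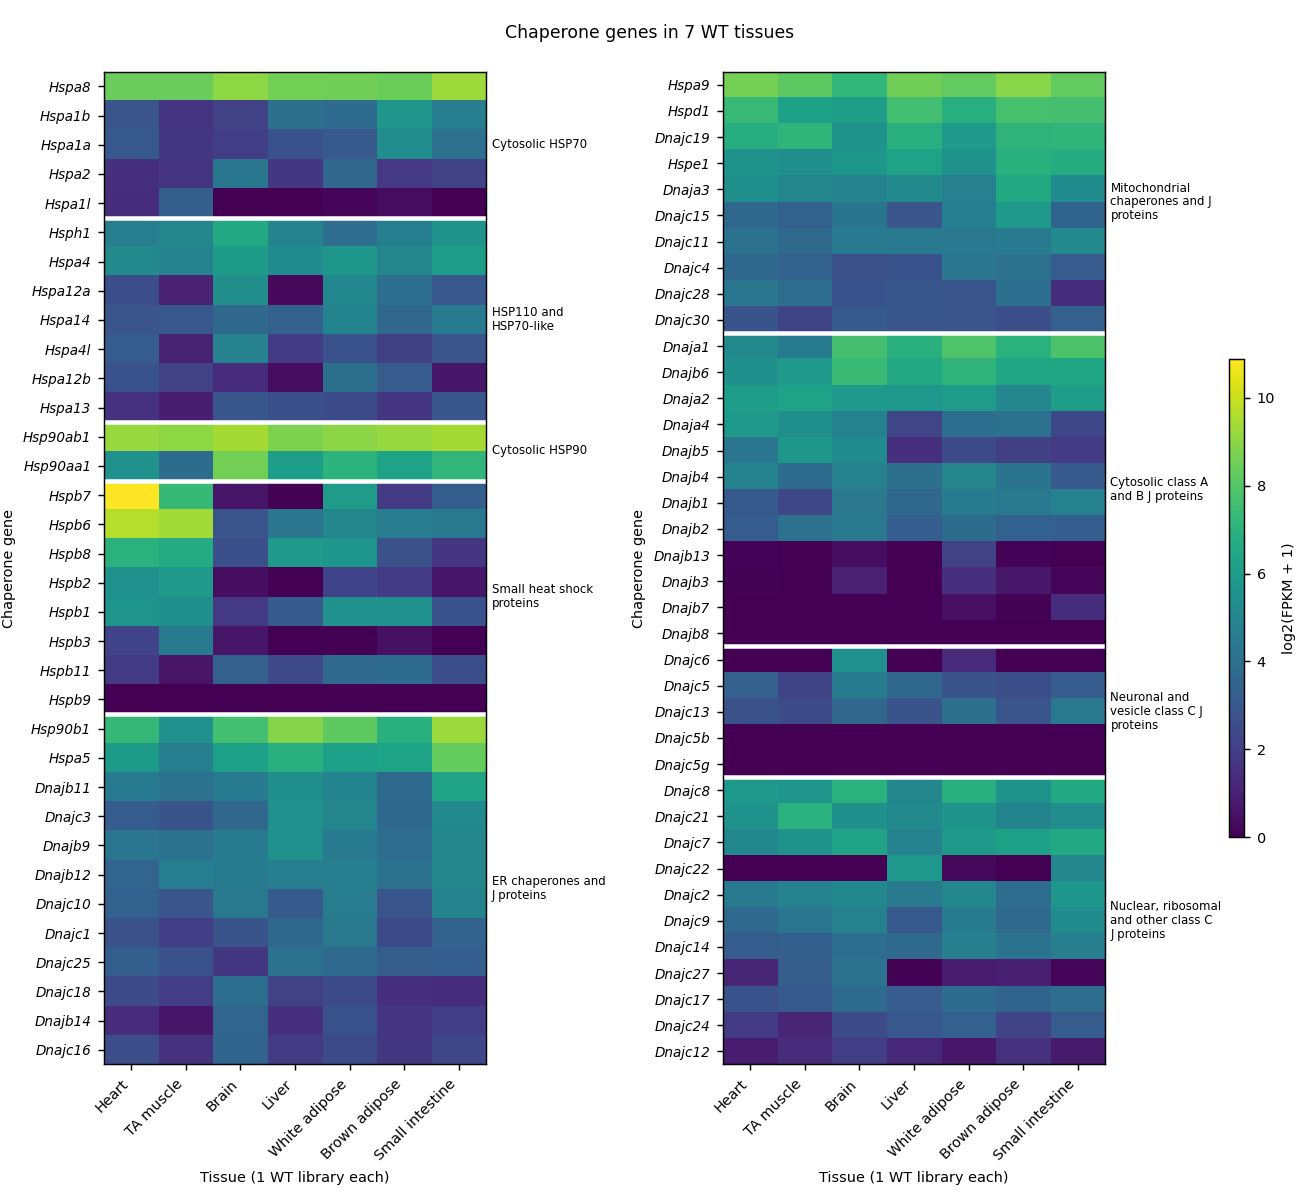
Heat map of log2(FPKM + 1) of the 72 chaperone genes (vertical axis, grouped by role) in 7 WT tissues (horizontal axis, 1 library each). *Hspb7* reached 1897 FPKM in heart and *Dnajc6* 44.7 in brain, while *Hspa8* and *Hsp90ab1* were above 300 FPKM in every tissue.

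The comparison of MCK-Musclin with WT iWAT after cold asks which genes of beige fat move with Musclin. Of the 64 chaperone genes listed there, 61 passed a mean of 1 FPKM and were tested, while *Dnajb3*, *Dnajc6* and *Dnajc12* were below it. Few chaperone genes differed. With limma, none of the 61 had an adjusted p (Benjamini-Hochberg) under 0.05, as none of the 12197 genes tested had (0.0%). At an unadjusted p under 0.05, 3 chaperone genes were higher in MCK-Musclin mice, against 13.1% of all genes, and 1 was lower, against 3.44%. The groups did not overlap for 5 chaperone genes that were higher, against 17.9% of all genes, and for 4 that were lower, against 5.44%. The median log2 fold change was -0.02 over the chaperone genes and 0.06 over all genes. The log2 fold changes here are on the log2(FPKM + 1) scale, which understates the change of low genes. When the values were rescaled to TPM, 1 chaperone gene was higher and 6 were lower, with 9.82% and 5.39% of all genes, and with median-ratio scaling it was 1 and 7, with 8.51% and 6.77%. Only *Dnajc9* among the higher and *Dnajb4* among the lower genes passed on all 3 scales.

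The genes that were higher are J proteins of the nucleus and cytosol. *Dnajc9*, a histone chaperone that recruits HSP70 to chromatin (ENSMUSG00000021811, minus strand of chromosome 14, 20384638 to 20388910), was at 33.8, 27.2 and 27.5 FPKM in WT libraries 1 to 3 and at 37.4, 42.3 and 38.6 in MCK-Musclin libraries 1 to 3. Each MCK-Musclin library was above each WT library. The log2 fold change was 0.41 ± 0.11 (SE, n = 3 per group, limma, unadjusted p = 0.00808, adjusted p = 0.171), and it passed the unadjusted threshold without any 1 library and on both other scales.

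*Dnajc7*, which binds HSP70 and HSP90 together, was at 85.4, 73.2 and 80.6 FPKM in WT and at 91.4, 98.1 and 96.6 in MCK-Musclin libraries. *Dnajc8*, a J protein of the spliceosome, was at 113, 111 and 114 FPKM in WT and at 122, 140 and 133 in MCK-Musclin libraries. Neither gene overlapped between the groups, and both changes were small, with log2 fold changes of 0.26 ± 0.10 and 0.22 ± 0.09 (limma, unadjusted p = 0.0291 and 0.0477, adjusted p = 0.25 and 0.298). Both lost the unadjusted threshold under either scaling (limma unadjusted p = 0.0612 to 0.155), and without WT library 2 or 3 or MCK-Musclin library 2 or 3 (unadjusted p = 0.0527 to 0.143). *Dnajc8* also lost it without WT library 1 (limma unadjusted p = 0.0936). Exons of *Dnajc7* overlap those of *Cnp* and *Nkiras2*, from which reads cannot be told apart without strand.

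*Dnajc10* and *Hspa14* were likewise separated between the groups at smaller steps. *Dnajc10*, which reduces disulfide bonds in the ER, was at 21.4, 22.7 and 21.7 FPKM in WT and at 24.7, 24.5 and 24.4 in MCK-Musclin libraries (limma log2 fold change 0.15 ± 0.08, unadjusted p = 0.103). *Hspa14*, an HSP70-like protein of the ribosome, was at 20.4, 17.5 and 19.0 FPKM and at 20.7, 22.5 and 20.7, with limma unadjusted p = 0.137. *Dnajc2*, its partner at the ribosome, was at 42.4, 39.4 and 47.0 FPKM and at 51.4, 47.9 and 45.5, so that the groups overlapped. B and T cell markers moved in the same direction in these libraries. Also higher were 5 of 6 lymph node stroma markers, 8 of 12 interferon response genes and 4 of 13 immediate early genes tested. These were calls at an unadjusted p under 0.05 (limma), as for 13.1% of all genes, and 0 genes of these lists were lower. The part of all these lists in the values of these J proteins was not tested.

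*Dnajb4*, an HSP70 partner that guides misfolded muscle proteins (ENSMUSG00000028035, minus strand of chromosome 3, 152178511 to 152210302), was at 22.1, 21.9 and 22.8 FPKM in WT and at 14.4, 19.2 and 17.0 in MCK-Musclin libraries. The WT libraries were within 1 FPKM of each other and all above the MCK-Musclin libraries, of which the library labelled MCK-Musclin 1 was lowest. The log2 fold change was -0.39 ± 0.12 (limma, unadjusted p = 0.0118, adjusted p = 0.19) and -0.29 without that library (unadjusted p = 0.0354), and it passed the unadjusted threshold in each alternative run. *Dnajb14*, a J protein of the ER membrane, was also lower without overlap, at 5.14, 4.82 and 4.66 FPKM and at 4.38, 3.69 and 3.96 (limma unadjusted p = 0.0662).

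Of the mitochondrial chaperones 9 of the 10 tested had log2 fold changes below 0, against 4715 of all 12197 genes, with a median of -0.19, but none passed at an unadjusted p under 0.05. *Hspa9* was at 498, 496 and 508 FPKM in WT and at 484, 357 and 452 in MCK-Musclin libraries, a change of -0.23 ± 0.13 (limma unadjusted p = 0.129) without overlap. *Hspd1* was at 173, 153 and 192 FPKM and at 163, 135 and 143, a change of -0.23 ± 0.12 with overlap (limma unadjusted p = 0.0953, with unadjusted p = 0.0404 under median-ratio scaling and unadjusted p = 0.0432 without WT library 2). *Hspe1*, whose gene starts beside that of *Hspd1* and shares the heat shock element shown above, was at 135, 139 and 97.4 FPKM and at 125, 121 and 121, with a 95% interval of the change from -0.34 to 0.34. Its estimate, counted among the 9 below 0, was -0.00057 and turned positive without some libraries. The lowest value of *Hspe1* lay in WT library 3, where *Hspd1* was highest.

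*Dnaja3* was at 31.0, 45.8 and 52.3 FPKM in WT and at 43.1, 25.8 and 22.8 in MCK-Musclin libraries, a change of -0.50 ± 0.27 (limma unadjusted p = 0.106). *Dnajc15* was at 67.8, 56.3 and 81.2 FPKM and at 65.6, 44.1 and 48.0, a change of -0.38 ± 0.19 (unadjusted p = 0.079). For both genes the library labelled MCK-Musclin 1 lay among the WT libraries. Without it, the changes were -0.77 and -0.55 (limma, unadjusted p = 0.0128 and 0.016, adjusted p = 0.213 and 0.225). *Dnaja3* also passed without WT library 1 (limma unadjusted p = 0.0336) and *Dnajc15* without WT library 2 (limma unadjusted p = 0.0368). *Dnajc28*, another mitochondrial J protein, was at 7.18, 6.78 and 8.36 FPKM and at 6.14, 5.62 and 6.60, with no overlap (limma unadjusted p = 0.0709). Brown and beige fat markers, which mark cells rich in mitochondria, had the same direction in these libraries and the same exception, with summed FPKM of 683 in the library labelled MCK-Musclin 1 against 242 and 126 in MCK-Musclin libraries 2 and 3, and their part was not tested.

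Without the library labelled MCK-Musclin 1, in which *Ostn* is listed at 0, 5 chaperone genes were higher and 4 lower at an unadjusted p under 0.05 (limma), with 1461 and 459 of the 12197 genes tested. The 9 were *Dnajc7*, *Dnajc8*, *Dnajc9*, *Dnajb2* and *Dnajc17*, and *Dnajb4*, *Dnaja3*, *Dnajc15* and *Dnajb9*. None had an adjusted p under 0.05.

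The abundant cytosolic chaperones hardly separated the groups. *Hspa8* was at 526, 398 and 535 FPKM in WT and at 386, 477 and 854 in MCK-Musclin libraries. The value of MCK-Musclin library 3 stood above the other 5, and the change was 0.16 ± 0.29 with it and -0.17 without it (limma unadjusted p = 0.584 and 0.397). *Hsp90b1* was likewise set apart in that library, at 414 FPKM against 281 to 292 in the other 5. *Hsp90ab1* was at 767, 610 and 704 FPKM and at 698, 747 and 766, and *Hsp90aa1* at 111, 105 and 116 and at 99.5, 108 and 123. *Hspa5* was at 87.1, 82.2 and 76.5 FPKM and at 79.4, 82.2 and 82.8, with a 95% interval of the log2 fold change from -0.22 to 0.20.

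The stress-inducible genes of iWAT did not pass the test. *Hspa1a* was at 2.21, 2.99 and 3.13 FPKM in WT and at 3.21, 2.38 and 3.81 in MCK-Musclin libraries, and *Hspa1b* at 3.94, 3.86 and 3.96 and at 4.43, 3.46 and 4.45. *Dnajb1*, the inducible J protein of the cytosol, was at 19.1, 20.3 and 22.5 FPKM and at 17.0, 22.0 and 18.2. *Hsph1* was at 17.5, 13.5 and 25.7 FPKM and at 13.6, 16.1 and 22.5. Each overlapped between the groups, with unadjusted p in limma between 0.39 and 0.721. *Dnaja1* was between 148 and 195 FPKM in all 6 libraries.

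None of the small heat shock proteins of iWAT passed the test. *Hspb6* was at 20.7, 24.7 and 34.9 FPKM in WT and at 15.7, 27.0 and 17.6 in MCK-Musclin libraries, a change of -0.40 ± 0.24 (limma unadjusted p = 0.142), and unadjusted p = 0.0259 without MCK-Musclin library 2. *Hspb7* was at 1.97, 3.84 and 12.9 FPKM and at 3.76, 9.40 and 6.06. *Hspb6* and *Hspb7* were both highest in WT library 3, the library with the highest sum of fast muscle markers, whose part was not tested. Without that library the change of *Hspb7* was 0.89 (limma unadjusted p = 0.0459), against 0.27 with it. *Hspb8* was at 31.1, 32.5 and 34.8 FPKM and at 27.1, 25.8 and 31.1, with a change of -0.22 ± 0.10 (limma unadjusted p = 0.0665, and unadjusted p = 0.0288 and 0.022 on the TPM and median-ratio scales). *Hspb1* was between 15.4 and 22.8 FPKM in all libraries.

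**Figure D2:**
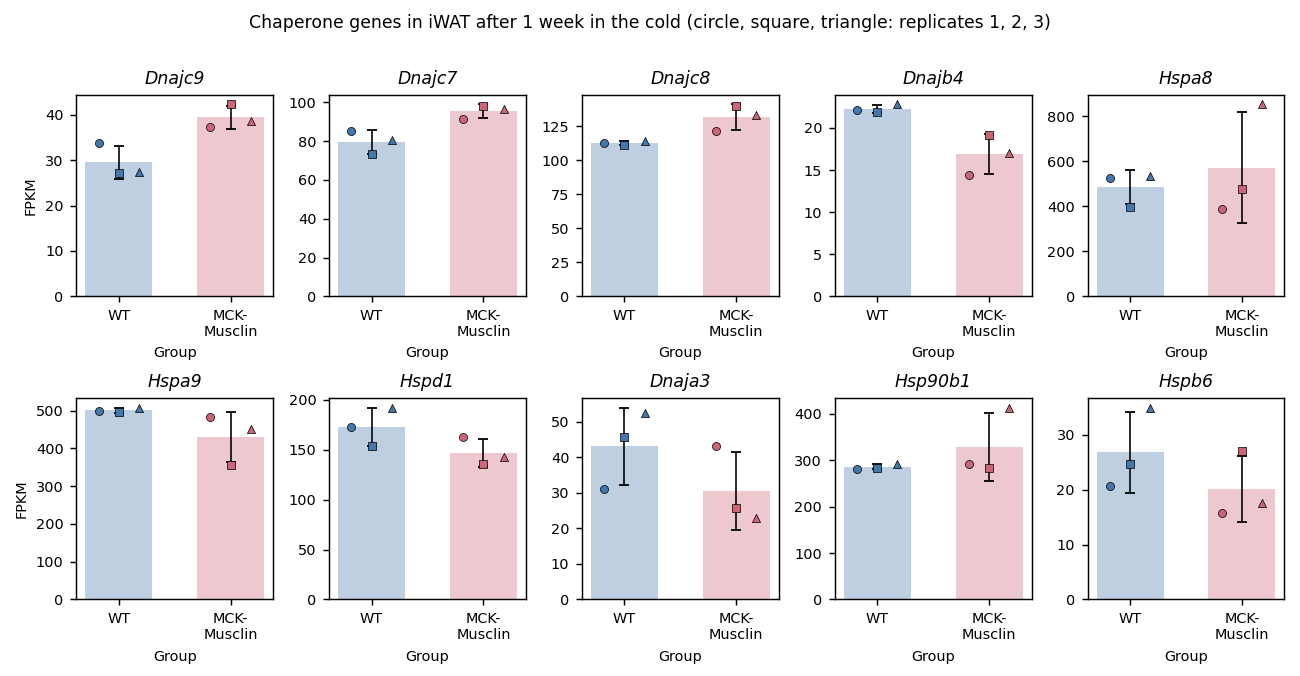
FPKM (vertical axes, from 0) of 10 chaperone genes in the 3 WT and 3 MCK-Musclin iWAT libraries, with bars for the mean and lines for ± 1 SD. *Dnajc9*, *Dnajc7* and *Dnajc8* were higher and *Dnajb4* lower in every MCK-Musclin library, and *Hspa8* was at 854 in MCK-Musclin library 3 alone.

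In BAT 60 of the 72 chaperone genes were tested and 12 were below a mean of 1 FPKM. Again few differed. None of the 60 had an adjusted p under 0.05 in limma, against 1 of the 10893 genes tested (0.00918%). At an unadjusted p under 0.05, 3 chaperone genes were higher, against 2.18% of all genes, and 0 were lower, against 2.71%. The groups did not overlap for 2 chaperone genes, both higher, against 4.38% of all genes in that direction and 5.63% in the other. The median log2 fold change was 0.02 over the chaperone genes and -0.01 over all genes.

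Of the genes that were higher, *Dnajc18* and *Dnajc1* are J proteins of the ER membrane. *Dnajc18* was at 1.26, 1.02 and 1.35 FPKM in WT libraries 1 to 3 and at 2.27, 1.75 and 2.14 in MCK-Musclin libraries 1 to 3. Every MCK-Musclin library was above every WT library, at low values, and the log2 fold change was 0.46 ± 0.13 (limma, unadjusted p = 0.00969, adjusted p = 0.929). It passed the unadjusted threshold without any 1 library. *Dnajc1*, whose exons overlap those of *Mllt10*, was at 5.22, 6.16 and 5.01 FPKM and at 7.70, 6.37 and 6.69, a change of 0.29 ± 0.12 (limma, unadjusted p = 0.0448, adjusted p = 0.968). The groups were apart by 6.16 against 6.37, and the threshold was lost without WT library 1 or 3 or MCK-Musclin library 1 or 3 (unadjusted p = 0.0704 to 0.138).

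*Hspb7* (ENSMUSG00000006221, plus strand of chromosome 4, 141420779 to 141425311) had the largest log2 fold change of the chaperone genes tested in BAT. It was at 2.45, 5.32 and 2.95 FPKM in WT and at 26.7, 7.17 and 4.61 in MCK-Musclin libraries. MCK-Musclin library 1 stood far above the others and library 3 lay below WT library 2, so the groups overlapped. The change was 1.29 ± 0.55 (limma, unadjusted p = 0.0494, adjusted p = 0.968), 0.62 without MCK-Musclin library 1 (unadjusted p = 0.0771), and it missed the unadjusted threshold also without WT library 1 or 3 or MCK-Musclin library 2 (unadjusted p = 0.0535 to 0.131).

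*Hspb6*, *Cryab* and *Hspb3* were also highest in that library, and *Hspb2*, which is likewise high in muscle, was not. *Hspb6* was at 27.3, 44.4 and 29.3 FPKM in WT and at 65.2, 36.7 and 42.1 in MCK-Musclin libraries, a change of 0.49 ± 0.25 (limma unadjusted p = 0.0883), 0.70 without WT library 2 (unadjusted p = 0.0239) and 0.66 without MCK-Musclin library 2 (unadjusted p = 0.0419). *Cryab*, the small heat shock protein alpha B-crystallin that the naming rule leaves out, was at 9.56, 10.3 and 9.21 FPKM and at 29.2, 17.7 and 10.98 without overlap, a change of 0.82 ± 0.30 (limma, unadjusted p = 0.0255, adjusted p = 0.968). *Hspb3* was at 1.28 FPKM in MCK-Musclin library 1 and between 0 and 0.196 in the other 5, and was too low to be tested. *Hspb2*, also too low, was at 1.12, 0.165 and 0.647 FPKM in WT and at 0.992, 0.549 and 0 in MCK-Musclin libraries, highest in WT library 1. The sum of the 15 fast muscle markers was 2150 in this library, 984 and 1379 in MCK-Musclin libraries 2 and 3 and 603 to 935 in WT, and its part in these values was not tested. *Hspb8*, which is not abundant in muscle alone, was at 32.2, 30.05 and 32.1 FPKM and at 32.1, 29.9 and 34.97, and *Hspb1* at 30.1, 37.0 and 31.7 and at 38.2, 29.3 and 49.1.

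Several heat-inducible genes of BAT varied widely among libraries of a group. *Hspa1a* was at 1.28, 7.06 and 2.40 FPKM in WT and at 4.83, 1.39 and 2.69 in MCK-Musclin libraries, and *Hspa1b* at 1.68, 8.72 and 2.68 and at 4.99, 1.45 and 3.95. *Hsph1* was at 18.8, 38.5 and 25.8 FPKM and at 25.7, 18.2 and 32.7. *Dnajb1* was at 14.3, 26.4 and 16.8 FPKM and at 12.6, 13.8 and 15.2. Each of these genes was highest in WT library 2 and overlapped between the groups, with unadjusted p in limma between 0.0944 and 0.849, *Dnajb1* passing without WT library 1. The immediate early genes were also highest in WT library 2, with a summed FPKM of 125 and a range of 29.2 to 46.4 in the other WT and 42.7 to 94.2 in the MCK-Musclin libraries, and none of the 11 tested passed an unadjusted p under 0.05. Their part was not tested. *Hsp90aa1*, the inducible HSP90, was instead highest in MCK-Musclin library 3, at 136 FPKM against 104 in WT library 2.

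The within-group spread of *Hspa1a* and *Hspa1b* was thus wide, with a pooled SD of 0.80 and 0.84 on the log2 scale against a median of 0.17 over all genes tested. Without WT library 2 their changes turned from -0.10 and -0.13 to 0.41 for both (limma unadjusted p = 0.318 and 0.327). Of the brown adipose library among the 7 tissues, which was not described as cold-exposed, the 38.9 FPKM of *Hspa1a* belong to a separately made table and were not compared.

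*Hspa5* fell into high and low libraries that cut across the groups. It was at 34.3, 75.3 and 33.5 FPKM in WT and at 71.4, 64.4 and 34.9 in MCK-Musclin libraries, with WT library 2 and MCK-Musclin libraries 1 and 2 high. The change was 0.29 ± 0.37 (limma unadjusted p = 0.452). *Hsp90b1*, which also has ER stress elements, did not follow that split, at 92.5, 86.1 and 94.8 FPKM in WT and between 81.0 and 112 in MCK-Musclin libraries, library 2 being lowest. Nor did *Dnajc3*, at 13.3, 12.8 and 12.4 FPKM and at 12.3, 12.1 and 12.8, or *Dnajb11*, at 15.4, 15.0 and 13.6 and at 16.4, 16.1 and 15.3.

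The mitochondrial chaperones of BAT were abundant and close between the groups. *Hspa9* was at 963, 805 and 800 FPKM in WT and at 938, 856 and 921 in MCK-Musclin libraries, a change of 0.08 with a 95% interval from -0.14 to 0.31. *Hspd1* was at 192, 186 and 209 FPKM and at 220, 190 and 215, a change of 0.09 with an interval from -0.13 to 0.30. *Hspe1* was at 192, 199 and 176 FPKM and at 128, 140 and 195, where MCK-Musclin libraries 1 and 2 were lowest and library 3 lay among WT. Its change was -0.31 ± 0.15 (limma unadjusted p = 0.0807), and -0.49 without MCK-Musclin library 3 (unadjusted p = 0.00203). *Dnaja3* was between 83.2 and 130 FPKM in all 6 libraries.

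Of the cytosolic chaperones, *Hspa8* was at 539, 599 and 581 FPKM in WT and at 562, 527 and 781 in MCK-Musclin libraries. MCK-Musclin library 3 was the highest. That library also held the highest value of *Hsp90aa1*, at 93.9, 104 and 83.1 FPKM in WT and 111, 89.9 and 136 in MCK-Musclin libraries (limma unadjusted p = 0.166), and of *Dnaja1*, at 118, 99.6 and 130 and at 121, 86.0 and 183 (unadjusted p = 0.693). *Hsp90ab1* was between 527 and 638 FPKM in all 6 libraries.

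**Figure D3:**
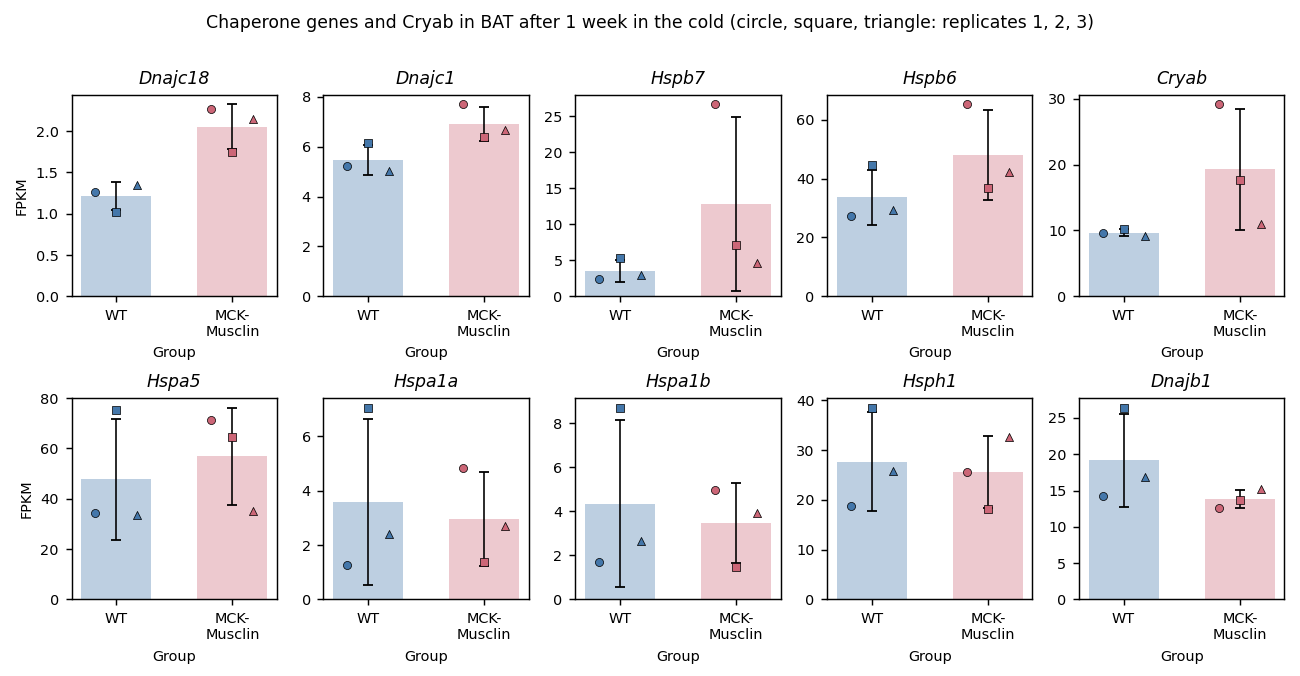
FPKM (vertical axes, from 0) of 9 chaperone genes and *Cryab* in the 3 WT and 3 MCK-Musclin BAT libraries, with bars for the mean and lines for ± 1 SD. *Hspb7*, *Hspb6* and *Cryab* were highest in MCK-Musclin library 1, and *Hspa1a*, *Hspa1b*, *Hsph1* and *Dnajb1* in WT library 2.

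**Figure D4:**
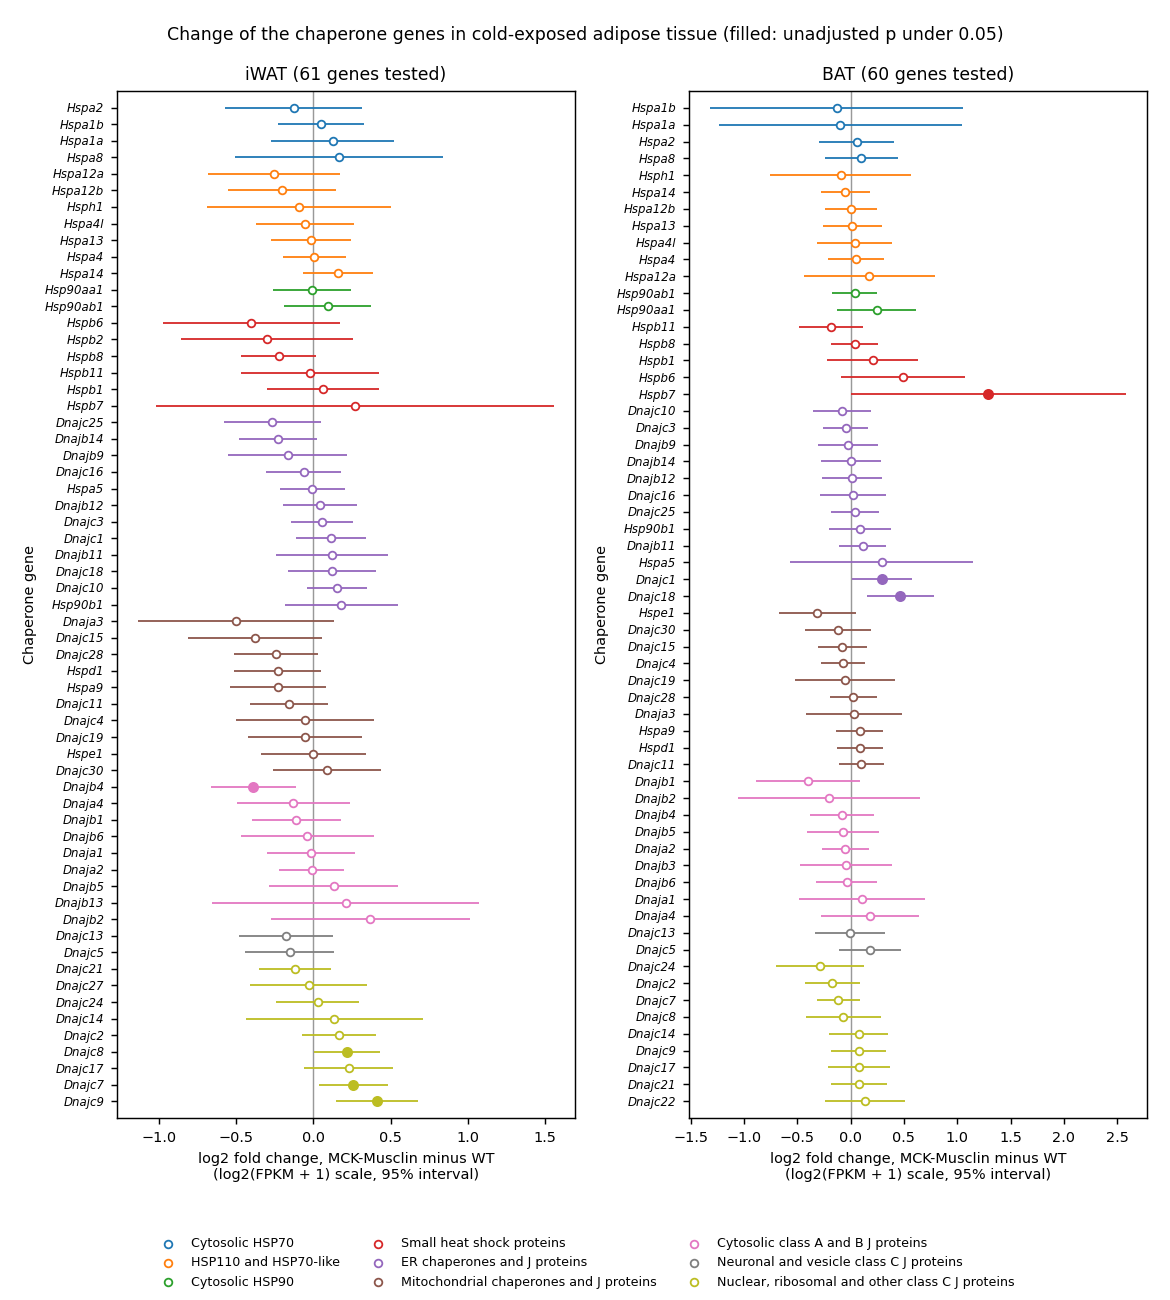
log2 fold change of each tested chaperone gene (MCK-Musclin minus WT, horizontal axes, bars for the 95% interval) in iWAT and BAT, colored by role, with filled points for an unadjusted p under 0.05. Most intervals include 0, and the 4 filled points of iWAT and the 3 of BAT are different genes.

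Whether a change differed between the adipose depots was tested with the interaction of tissue and genotype over all 12 libraries, for 58 chaperone genes among 9757. None had an adjusted p under 0.05 in limma, as none of all genes had (0.0%), and 3 had an unadjusted p under 0.05, against 10.1% of all genes. *Dnajc7* differed by -0.37 ± 0.12 (unadjusted p = 0.0106, adjusted p = 0.421), with a change of 0.26 in iWAT and -0.11 in BAT, and kept an unadjusted p under 0.05 without any 1 library. *Dnajc2* differed by -0.34 ± 0.14 (limma unadjusted p = 0.0372, adjusted p = 0.472), from 0.17 in iWAT and -0.17 in BAT. *Hspb6* differed by 0.89 ± 0.39 (unadjusted p = 0.0403, adjusted p = 0.474), from -0.40 in iWAT and 0.49 in BAT, and by 0.65 without MCK-Musclin library 1 of BAT (limma unadjusted p = 0.104). *Dnajc2* missed the unadjusted threshold without WT library 1 or 2 or MCK-Musclin library 1 or 2 of iWAT and without WT library 2 or MCK-Musclin library 1 or 2 of BAT. *Hspb6* missed it without WT library 2 or 3 or MCK-Musclin library 1 or 3 of iWAT and without WT library 1 or 3 or MCK-Musclin library 1 of BAT. It was highest in WT library 3 of iWAT and in MCK-Musclin library 1 of BAT. These libraries had the highest sums of fast muscle markers in their tissues, whose part was not tested. On the TPM scale 8 chaperone genes passed with a higher change in BAT than in iWAT, against 4.99% of all genes, and 1 with a lower, against 3.96%. With median-ratio scaling the counts were 9 and 1, against 5.69% and 4.11% of all genes. In 9 of the 10 mitochondrial genes in iWAT and 5 of the 10 in BAT the log2 fold change was below 0, against 4715 of 12197 and 5693 of 10893 genes.

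The genes that work with the chaperones were read from the same fits. Of 35 heat shock factors and partners of HSP70 and HSP90 tested in iWAT, *Cdc37* was higher and *Bag4* lower at an unadjusted p under 0.05, against 13.1% and 3.44% of all genes, and the median was -0.02. *Cdc37*, which brings kinases to HSP90, was at 80.4, 73.5 and 71.0 FPKM in WT and at 92.8, 89.7 and 84.5 in MCK-Musclin libraries (limma log2 fold change 0.25 ± 0.09, unadjusted p = 0.0322, adjusted p = 0.258). *Hsf1*, the heat shock factor itself, was at 8.54, 6.93 and 9.63 FPKM and at 8.62, 8.32 and 12.8 (unadjusted p = 0.297). *Bag3* was between 30.3 and 37.7 FPKM and *Stip1*, which links HSP70 to HSP90, between 53.4 and 74.1. *Cryab* was at 25.1, 28.9 and 31.9 FPKM and at 19.6, 53.4 and 21.3 (limma unadjusted p = 0.971).

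Of 14 genes of the cytosolic chaperonin TRiC and of prefoldin, *Cct2* and *Vbp1* were higher in iWAT at an unadjusted p under 0.05, near the 13.1% of all genes, with a median of 0.11. *Cct2* was at 119, 112 and 115 FPKM in WT and at 136, 136 and 141 in MCK-Musclin libraries (limma log2 fold change 0.25 ± 0.08, unadjusted p = 0.0183, adjusted p = 0.215). Of 24 genes of ER folding 1 was higher, against the same 13.1%. This was *Manf*, a secreted ER protein of the unfolded protein response, at 31.9, 35.7 and 57.0 FPKM and at 54.8, 63.8 and 74.1 (0.65 ± 0.22, limma unadjusted p = 0.0208, adjusted p = 0.221), and the groups overlapped. Of 18 mitochondrial folding genes and proteases *Afg3l2*, a protease of the inner membrane, was lower (-0.26 ± 0.10, limma unadjusted p = 0.0323, adjusted p = 0.258), against 3.44% of all genes, and 13 of the 18 had log2 fold changes below 0, with a median of -0.14.

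In BAT none of 34 heat shock factors and partners passed an unadjusted p under 0.05, with *Hsf1* between 4.83 and 7.12 FPKM and *Bag3* between 23.3 and 39.9, highest in WT library 2. *Stip1* was at 37.8, 37.1 and 40.9 FPKM in WT and at 43.9, 39.7 and 57.5 in MCK-Musclin libraries (limma unadjusted p = 0.101). *Phb2*, a scaffold of the inner mitochondrial membrane, was at 81.5, 81.1 and 88.9 FPKM and at 60.5, 64.8 and 72.7 (-0.34 ± 0.10, limma unadjusted p = 0.00833, adjusted p = 0.929). *Pfdn2*, a subunit of prefoldin, was at 29.96, 30.8 and 29.4 FPKM and at 25.2, 24.1 and 25.4 (-0.26 ± 0.08, unadjusted p = 0.0138, adjusted p = 0.968), and *Creld2*, an ER protein, at 7.47, 6.44 and 6.497 and at 4.75, 5.58 and 5.96 (-0.28 ± 0.12, unadjusted p = 0.0495, adjusted p = 0.968). *Phb2*, *Pfdn2* and *Creld2* were each lower in every MCK-Musclin library, as 1 gene in each of lists with 18, 14 and 22 genes tested, against 2.71% of all genes.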

How the data were processed

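Reads were cleaned by the authors (fastp, bowtie2) and aligned to mm10 (GRCm38) with HISAT2 2.1.0, unstranded. Deposited values are FPKM per gene and library, made with StringTie by the study's methods, while the submitters' processing notes name Cuffdiff. The iWAT table lists fewer genes, by a filter not given in the sources used here, and its fold changes, p-values and group means, the authors' own comparison, were not used. In the tables of 7 tissues and of BAT 287 lines repeated a gene with the same values and were used once. The 3 tables were made separately, so levels were tested within a table only, and the interaction compares changes.

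MCK-Musclin and WT were compared on log2(FPKM + 1) with limma 3.58.1 and its trend option (R 4.3.3), for genes averaging at least 1 FPKM over the libraries, with Benjamini-Hochberg adjustment over the whole table. Summaries used Python 3.11.15 and pandas 2.3.3. The limma step was tested on simulated data with genes drawn independently and planted log2 changes of 1 and 2. Of 100 genes changed by 1, 77 were called in iWAT and 79 in BAT (limma adjusted p under 0.05). Smaller changes, such as most given here, and shifts shared by many genes were not simulated. Chaperone genes and the lists of roles, partners and markers were chosen with earlier results of these data known. Any chaperone gene could be named. Always named were those with an unadjusted p under 0.05 or the 5 largest changes, 18 well-known chaperones, partners with an unadjusted p under 0.05, *Hsf1*, *Cryab*, *Bag3* and *Stip1*, and across tissues genes at a ratio of 5 or more or among the 10 highest medians. Alternatives were a pseudocount of 0.1, no filter or a mean of 5 FPKM, TPM, median-ratio scaling, robust variances, a replicate block and leaving out each library. Shared words are 50-base stretches of the longest coding transcript that occur in transcripts of other genes. Replicate numbers were given to the libraries by the labels. The p-values set the difference between groups against the spread between these libraries, which limma moderates over all genes.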

Additional observations from a re-analysis of the deposited data

Results flagged for a closer look

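The changes of 3 chaperone genes differed between BAT and iWAT at an unadjusted p under 0.05 of the interaction in limma, as those of 10.1% of all genes did, and none at an adjusted p under 0.05. The change in BAT minus the change in iWAT was -0.37 for *Dnajc7*, -0.34 for *Dnajc2* and 0.89 for *Hspb6*, on the log2 scale with 3 libraries per group. On the TPM and median-ratio scales *Dnajc7* and *Hspb6* passed and *Dnajc2* did not (limma, unadjusted p = 0.0936 and 0.117). *Hspb6* missed the unadjusted threshold with the replicate block and without some of the libraries, as listed above. The part of muscle RNA in its values was not tested.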

How the results depend on the processing

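The counts of chaperone genes at an unadjusted p under 0.05 (limma) moved with the scaling. In iWAT the 3 higher genes became 1 on the TPM scale, 1 with median-ratio scaling and 1 with the replicate block, and the 1 lower gene became 6 and 7 on the TPM and median-ratio scales. Over all genes the higher and lower calls were 1592 and 420, against 1198 and 657 on the TPM scale and 1038 and 826 with median-ratio scaling. In BAT the 3 higher genes became 1 at a mean of at least 5 FPKM, which leaves fewer genes tested, and 1 with the block. For the interaction the 3 genes became 5 without a filter, 9 on the TPM and 10 on the median-ratio scale, and the split over all genes went from 295 and 687 to 487 and 386 and to 555 and 401. Across tissues the 2 genes at a ratio of 5 became 4 with a pseudocount of 0.1, and on the TPM scale the genes highest in white adipose tissue went from 10 to 16 and in brown adipose tissue from 8 to 4. The cause was not tested.

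Leaving out 1 library at a time gave 1 to 5 higher and 1 to 4 lower chaperone genes in iWAT, 1 to 5 and 0 to 3 in BAT, 2 to 8 for the interaction, and 1 to 8 partner genes in iWAT and 2 to 5 in BAT, with 0 chaperone genes at an adjusted p under 0.05 each time.

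The replicate numbers were not taken to pair the libraries, since not every same-number correlation was above 0.1. Same-number correlations of deviations were 0.235, 0.061 and 0.107 in iWAT and -0.095, -0.005 and 0.009 in BAT. In iWAT each library correlated best with its own number except MCK-Musclin library 2, which was at 0.07 with WT library 3, and in BAT none did. With the block the 4 partner genes in iWAT and 5 in BAT compare with 6 and 4 without it.

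With median-ratio scaling the log2 fold changes of *Hspa1b* and *Hspb1* in iWAT turned to -0.0151 and -0.012. Leaving out a library turned the direction of genes that did not pass the test. In iWAT the ranges were -0.1128 to 0.0826 for *Dnaja1*, -0.091 to 0.0617 for *Hsp90aa1*, -0.0005 to 0.1448 for *Hspa1b*, -0.0549 to 0.0377 for *Hspa5*, -0.1653 to 0.4053 for *Hspa8*, -0.0642 to 0.202 for *Hspb1*, -0.2188 to 0.8934 for *Hspb7*, -0.1628 to 0.09 for *Hspe1* and -0.3006 to 0.1396 for *Hsph1*. In BAT they were -0.1761 to 0.3655 for *Dnaja1*, -0.1546 to 0.1875 for *Dnaja3*, -0.028 to 0.11 for *Hsp90ab1*, -0.0171 to 0.2113 for *Hsp90b1*, -0.4957 to 0.4144 for *Hspa1a*, -0.5182 to 0.4109 for *Hspa1b*, -0.0728 to 0.2114 for *Hspa8*, -0.0197 to 0.089 for *Hspb8* and -0.333 to 0.1674 for *Hsph1*. With 3 libraries per group and no read counts, depth sets no stated limit.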
